A study of Rattus norvegicus with 6 samples.

Results

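The miR-30 family was examined in small RNA libraries from rat plasma exosomes, through 5 5p arms (rno-miR-30a-5p, rno-miR-30b-5p, rno-miR-30c-5p, rno-miR-30d-5p and rno-miR-30e-5p) and 3 3p arms (rno-miR-30a-3p, rno-miR-30d-3p and rno-miR-30e-3p), named without the species prefix from here on. These 8 members were picked by name from the 763 mature rat miRNAs in the deposited count table, and all 8 passed the filter on low counts. Exosomes are small vesicles that cells release into blood, and remote ischemic pre-conditioning (RIPC) is a brief, repeated stop of blood flow to a limb that protects the distant heart. The RIPC rats had 4 cycles of rubber-band binding of both hind limbs, each with 5 min of ischemia and 5 min of reperfusion, whereas the control rats had no RIPC. Plasma from both groups was taken 48 h later, the late phase of RIPC, and exosomes from RIPC rats (R-exo, 3 libraries) were compared with exosomes from control rats (C-exo, 3 libraries). All animals were male Sprague-Dawley rats of 7 to 8 weeks, with no drug treatment on the labels, and both groups were under sodium pentobarbital when blood was drawn. The RIPC rats were also anesthetized for the RIPC cycles, and the methods do not say whether the control rats were anesthetized at that time. Neither the labels nor the methods say whether each library came from 1 rat or from pooled plasma, so the p-values measure the spread between these samples, part of which may be technical.

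A miRNA is cut from a hairpin precursor, the stem-loop, and either strand of the resulting duplex, the 5p or the 3p arm, can be loaded into an Argonaute protein. The loaded strand represses transcripts that pair with its seed, bases 2 to 8. The miR-30 family is abundant in heart, kidney and other tissues and is known for targets in fibrosis, autophagy and epithelial identity. The comparison asked which exosomal miRNAs differ at the late phase of RIPC, when plasma exosomes were tested for protection of the heart.

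The mature sequences are shown because miR-30a-5p and miR-30e-5p differ by a single base, which bears on how their reads could be told apart, and because the arms carry different seeds. They came from RefSeq (assembly GRCr8), which held 4 of the 8 members, and are written 5′ to 3′ with the seed in capitals. No entry was at hand for miR-30b-5p, miR-30d-5p, miR-30d-3p and miR-30e-3p.
rno-miR-30a-5p: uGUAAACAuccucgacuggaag
rno-miR-30e-5p: uGUAAACAuccuugacuggaag
rno-miR-30c-5p: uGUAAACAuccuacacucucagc
rno-miR-30a-3p: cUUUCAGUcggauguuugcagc

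The 3 printed 5p arms shared the seed GUAAACA, and the 3p arm of miR-30a had the unrelated seed UUUCAGU. miR-30a-5p and miR-30e-5p were identical at 21 of 22 positions and differed by C13U, where the base of miR-30a-5p is written first and position 1 is the 5′ base. miR-30c-5p matched miR-30a-5p at 17 of the 22 positions compared. How reads that fit several miRNAs were counted is not stated, so the split between miR-30a-5p and miR-30e-5p is uncertain to that extent. The same miR-30c-5p sequence is listed for 2 stem-loops, Mir30c1 and Mir30c2, whose reads cannot be told apart. The seed GUAAACA was also found in miR-384-5p, which was too rare to be tested, with 0, 2 and 1 counts in C-exo replicates 1, 2 and 3 and 4, 8 and 2 counts in R-exo replicates 1, 2 and 3.

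The stem-loops lie in pairs. In GRCr8, Mir30c1 (chr5:139634455-139634543, minus strand) neighbours Mir30e (chr5:139637450-139637541, minus strand), and both lie within the span of Nfyc, which encodes a subunit of the transcription factor NF-Y. Mir30a (chr9:33233941-33234011, plus strand) is paired with Mir30c2 (chr9:33253682-33253765, plus strand), and Mir30b with Mir30d on another chromosome. The counts themselves carry no coordinates, and the submitters' processing notes name the older build rn6.

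The libraries held 5484209 to 7531737 counts in C-exo and 6982273 to 7380752 in R-exo, so that a floor of 3 counts corresponded to 0.369 to 0.672 CPM, the count scaled to a common library size after TMM normalization, which sets libraries against each other by a trimmed mean of ratios. C-exo replicate 3 stood apart from the other control libraries. Over the 404 tested miRNAs its Spearman correlation of log2 CPM was 0.902 and 0.931 with C-exo replicates 1 and 2 but 0.965, 0.981 and 0.983 with R-exo replicates 1, 2 and 3, a description across miRNAs and not across independent samples. Of the tested miRNAs, 81.9% had a log2 level in C-exo replicate 3 closer to the average of R-exo than to that of the other control libraries, and all 8 members did. Results are therefore given with and without this library. No sequencing batch or date is given, and values within batches could not be given.

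The miR-30 family made up a small part of the miRNA reads in every library. Its 8 members together took 1.11%, 1.18% and 3.21% of all counts in C-exo replicates 1, 2 and 3, and 2.09%, 2.34% and 2.69% in R-exo replicates 1, 2 and 3. Both extremes were control libraries, so the groups overlapped. On the CPM scale the 5p arms summed to 12925, 9858 and 33007 in C-exo and to 17130, 22298 and 25219 in R-exo. The mean was 18597 ± 12574 CPM in C-exo and 21549 ± 4096 CPM in R-exo (SD, n = 3 each), a ratio of 1.16. Against C-exo replicates 1 and 2 alone, whose mean was 11391 CPM, the ratio was 1.89. On the log2 scale the difference of the sums was 0.21, which became 0.0078 without C-exo replicate 1 and -0.092 without C-exo replicate 2. The 3p arms summed to 762, 775 and 1405 CPM in C-exo against 973, 1137 and 979 CPM in R-exo, a ratio of 1.05, or 1.34 without C-exo replicate 3. The log2 difference of the 3p sums turned to -0.082 without C-exo replicate 1, -0.073 without C-exo replicate 2 and -0.0063 without R-exo replicate 2. A sum over chosen members was given no test.

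In R-exo the order of the mean levels was miR-30d-5p, miR-30a-5p, miR-30c-5p, miR-30e-5p, miR-30e-3p, miR-30a-3p, miR-30b-5p and miR-30d-3p. Mature lengths were 22 or 23 bases for the printed members, so counts are close to a level per length, though the ligation and copying of each miRNA can differ. The libraries of neighbours overlapped for miR-30d-5p and miR-30a-5p, for miR-30c-5p and miR-30e-5p, and for miR-30e-3p and miR-30a-3p, and not for the other neighbours. By mean CPM among all 763 miRNAs, miR-30d-5p ranked 26 in R-exo and 20 in C-exo, while miR-30d-3p, from the same stem-loop, ranked 318 and 342.

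**Figure D1:**
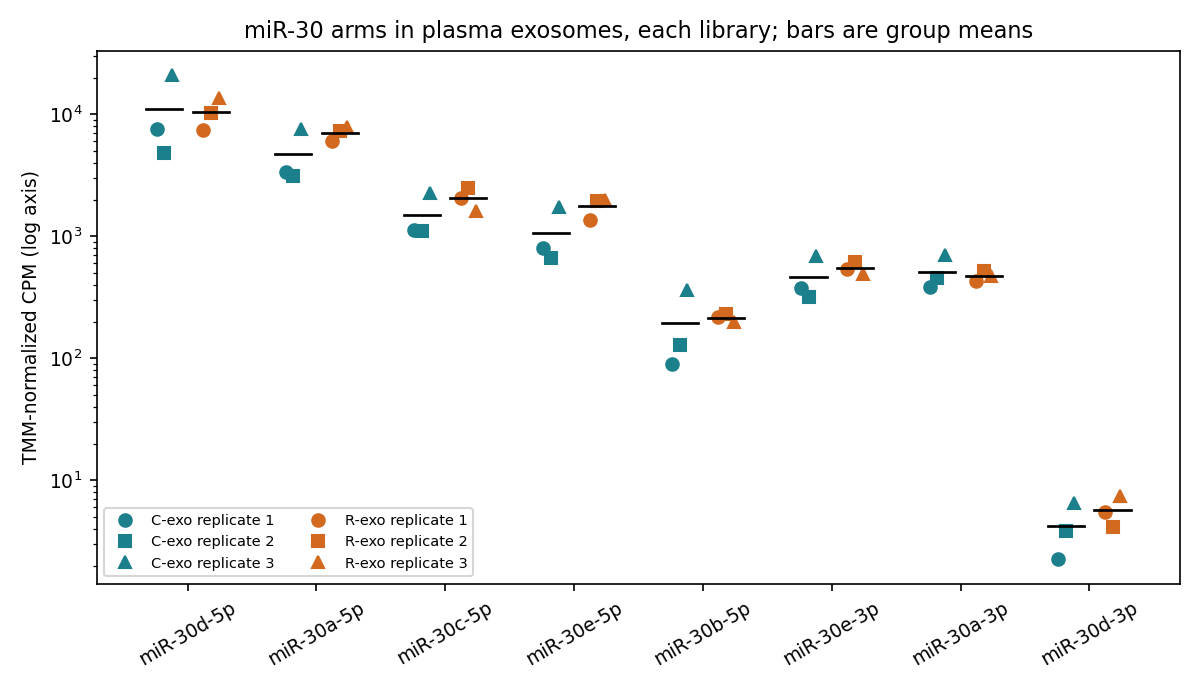
TMM-normalized CPM (log axis) of each miR-30 arm in the 3 C-exo and 3 R-exo libraries, with group means as bars. C-exo replicate 3 (teal triangles) was the highest library for miR-30d-5p, miR-30b-5p, miR-30e-3p and miR-30a-3p, as it was for 17.8% of all tested miRNAs, and the groups overlapped for all 8 arms.

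No member of the family rose or fell in R-exo by the tests used, and the groups overlapped for each of the 8. The criterion of the study was p under 0.05 together with more than a 2-fold change. Whether that p was adjusted is not stated, and the unadjusted p was used here. With the edgeR quasi-likelihood test, 0 of the 8 met this criterion, against 9.41% of all tested miRNAs (1.98% for those higher in R-exo). An adjusted p under 0.05 was reached by 0 of the 8 and by 0% of all tested miRNAs, and 0 of the 8 had an unadjusted p under 0.05. limma-voom and the DESeq2 Wald test also gave 0 of the 8 on every one of these counts. With each tool 49 of the 404 tested miRNAs met the criterion of the study, and 0 had an adjusted p under 0.05. Of the 49, those higher in R-exo were 27 with limma-voom and 17 with DESeq2. Groups without overlap were seen for 12.9% of all tested miRNAs, and 4.95% were without overlap and higher in R-exo. The log2 fold change of R-exo over C-exo was above 0 for 6 of the 8 members, with a median of 0.34, whereas it was above 0 for 48.8% of all tested miRNAs, with a median of -0.05. The members' median was 0.11 without C-exo replicate 1 and 0.20 without C-exo replicate 2, with 5 of 8 above 0 in each, and 0.23 to 0.42 with an R-exo library left out.

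miR-30d-5p, the most abundant member, was spread most widely among the control libraries. Its level was 7562, 4807 and 21056 CPM in C-exo replicates 1, 2 and 3 and 7463, 10282 and 13547 CPM in R-exo replicates 1, 2 and 3, the order used throughout. The highest and the lowest library were both C-exo. C-exo replicate 3 stood 3.41 times above the mean of the other control libraries. The means were 11141 ± 8696 and 10431 ± 3044 CPM (SD, n = 3 each), and the log2 fold change was -0.095 ± 0.58 (standard error, SE), with a Benjamini-Hochberg adjusted p = 0.95 in the edgeR test. Its direction was positive under RLE size factors (0.0101), upper quartile scaling (0.0109) and scaling to library size only (0.0744).

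miR-30a-5p, which differs from miR-30e-5p at a single base, was measured at 3344, 3154 and 7597 CPM in C-exo against 6038, 7325 and 7859 CPM in R-exo. All R-exo libraries were above C-exo replicates 1 and 2, but C-exo replicate 3 lay between the R-exo libraries. The means were 4698 ± 2512 and 7074 ± 936 CPM (SD, n = 3 each), and the log2 fold change was 0.59 ± 0.47 (SE), with an edgeR adjusted p = 0.53.

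miR-30e-5p, made from the Nfyc locus, had the largest log2 fold change of the 8 members, 0.73 ± 0.50 (SE), with an edgeR adjusted p = 0.51. The C-exo libraries held 796, 661 and 1739 CPM and the R-exo libraries 1363, 1960 and 1995 CPM. Here too only C-exo replicate 3 overlapped the R-exo libraries. Its unadjusted p of 0.17 was the smallest of the family.

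miR-30c-5p, the product of both Mir30c stem-loops, reached 1133, 1109 and 2251 CPM in C-exo against 2049, 2500 and 1619 CPM in R-exo, with a log2 fold change of 0.46 ± 0.46 (SE). The control libraries other than replicate 3 were below every R-exo library. miR-30b-5p, the rarest 5p arm, reached 89.7, 128 and 364 CPM in C-exo against 217, 232 and 198 CPM in R-exo. Its R-exo libraries differed by a factor of 1.17 from lowest to highest and its C-exo libraries by 4.06, with C-exo replicate 3 highest of all. Its log2 fold change was 0.15 ± 0.56 (SE), but -0.20 without C-exo replicate 1 and -0.023 without C-exo replicate 2.

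The 3p arms of miR-30a and miR-30e were present at comparable levels. miR-30e-3p was at 375, 317 and 693 CPM in C-exo against 539, 613 and 495 CPM in R-exo, with a log2 fold change of 0.25 ± 0.45 (SE). miR-30a-3p was at 384, 454 and 705 CPM in C-exo against 428, 520 and 477 CPM in R-exo, with a log2 fold change of -0.12 ± 0.42 (SE), and 0.027 with scaling to library size only. For both, C-exo replicate 3 was above every R-exo library. miR-30e-3p was below miR-30a-3p in each C-exo library, with count ratios of 0.977, 0.699 and 0.983, and above it in each R-exo library, with ratios of 1.26, 1.18 and 1.04. Of 5 ratios between members that were computed, the other 4 overlapped between groups. Over all 76636 pairs of tested miRNAs with a count in every library, 13.1% had count ratios without overlap. This one was picked after its values were seen and was not tested.

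miR-30d-3p, the partner of the most abundant member, was rare. It had 10, 30 and 46 counts in C-exo and 45, 29 and 56 counts in R-exo, or 2.24 to 6.54 CPM and 4.16 to 7.39 CPM. The log2 fold change was 0.43 ± 0.60 (SE), with an edgeR adjusted p = 0.74, so the error was larger than the difference.

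C-exo replicate 3 was set aside because it resembled R-exo, so leaving it out selects on the difference being tested, and the p-values without it are too small to be read as tests of RIPC. Without C-exo replicate 3, all 8 members had a log2 fold change above 0, with a median of 0.89 against 0.013 over all tested miRNAs. The adjusted p was under 0.05 for 2 of the 8, miR-30e-5p at a log2 fold change of 1.29 ± 0.42 (SE; edgeR adjusted p = 0.031) and miR-30a-5p at 1.13 ± 0.38 (SE; edgeR adjusted p = 0.036). Both also met the criterion of the study, as did 43.1% of all 422 miRNAs tested without that library, 23.7% with the higher level in R-exo. The share of all tested miRNAs with an adjusted p under 0.05 was 31.3%, and 17.3% were called and higher in R-exo. A count of 2 of 8 lies near these shares. Every R-exo library was above C-exo replicates 1 and 2 for 30.8% of all tested miRNAs and for the members other than miR-30d-5p and miR-30a-3p. miR-30b-5p, miR-30c-5p and miR-30d-5p had log2 fold changes of 0.998, 0.88 and 0.77, with edgeR adjusted p-values of 0.079, 0.101 and 0.15. The 3p arms had log2 fold changes of 0.90 for miR-30d-3p, 0.67 for miR-30e-3p and 0.19 for miR-30a-3p. Leaving out other libraries lowered several values, so that miR-30d-3p was at 0.11 without C-exo replicate 1 and 0.16 without R-exo replicate 3, and miR-30e-3p at 0.10 and 0.081 without C-exo replicates 1 and 2. Likewise miR-30a-5p was at 0.38 and 0.42, miR-30e-5p at 0.55 and 0.53 and miR-30c-5p at 0.26 and 0.32 without C-exo replicates 1 and 2, and miR-30c-5p was at 0.31 without R-exo replicate 2.

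**Figure D2:**
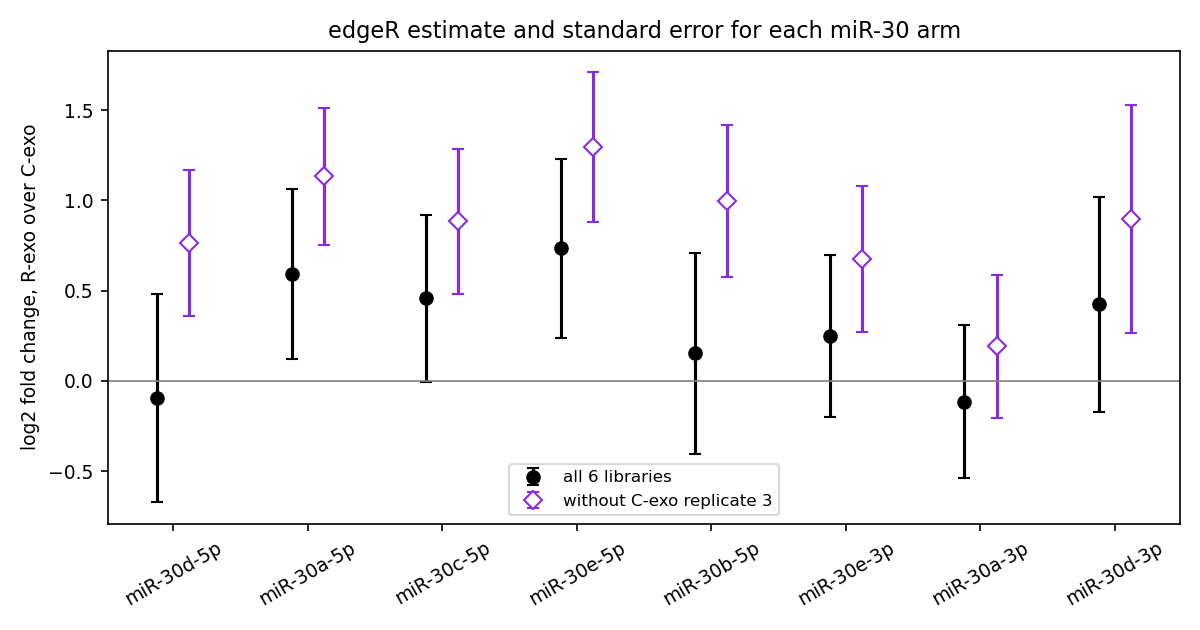
Log2 fold change of R-exo over C-exo with its standard error from edgeR for each miR-30 arm, with all 6 libraries (black circles) and without C-exo replicate 3 (open diamonds). The estimate was higher without that library for each of the 8 members shown, where it ran from 0.19 for miR-30a-3p to 1.29 for miR-30e-5p.

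Some markers of blood and tissue cells stood higher in C-exo replicate 3 than in the other control libraries, as the 8 members did, while others did not, and their part in the miR-30 levels was not tested. The sums of the lists are each carried by 1 or a few abundant miRNAs, and the members of a list did not all move together. The 4 platelet and leukocyte miRNAs summed to 5001, 3553 and 21386 CPM in C-exo against 11448 to 26857 CPM in R-exo, most of it miR-142-5p (2444, 2321 and 18749 CPM in C-exo), whereas miR-223-3p was at 793, 428 and 444 CPM in C-exo and had a log2 fold change of -0.36. For the 4 red cell miRNAs the sums were 198080, 92396 and 69274 CPM against 44535 to 74956 CPM, nearly all of it miR-486. miR-486 had a log2 fold change of -1.07 and did not pass the test, while miR-144-5p (1.63, unadjusted p = 0.018 in the edgeR test) and miR-144-3p (1.07, unadjusted p = 0.023 in the edgeR test) met the criterion of the study and were higher in every R-exo library than in every C-exo library. The 7 heart and skeletal muscle miRNAs summed to 2151, 3188 and 9820 CPM against 1804 to 5971 CPM, with miR-1-3p at 7110 CPM in C-exo replicate 3 and miR-208a-3p at 0 in C-exo replicate 1. In the same list, miR-133a-3p was at 1027, 1239 and 867 CPM in C-exo and miR-133b-3p at 627, 272 and 142 CPM. Both were thus lowest in replicate 3 among the control libraries. The 3 kidney epithelial miRNAs summed to 2989, 3614 and 11256 CPM against 3773 to 9027 CPM, almost wholly miR-10a-5p, and miR-204-5p was at 1.45 to 9.25 CPM in all libraries with a log2 fold change of -1.12. The sums of the 2 endothelial miRNAs, mostly miR-126a-3p, were 4722, 7336 and 16772 CPM against 20584 to 30332 CPM, and miR-126a-3p, at a log2 fold change of 1.34 (unadjusted p = 0.029 in the edgeR test), met the criterion of the study without overlap between groups. The liver and pancreas lists had C-exo replicate 3 close to C-exo replicate 2, at 79868, 104497 and 109249 CPM for the 3 liver miRNAs (76434 to 81302 CPM in R-exo) and 5357, 2340 and 2560 CPM for the 3 pancreas miRNAs (1673 to 3035 CPM in R-exo), of which miR-216a-5p was at 0 in C-exo replicates 1 and 2. Among the pancreas miRNAs, miR-217-5p met the criterion of the study (log2 fold change 2.30, unadjusted p = 0.035 in the edgeR test), with overlap between groups. miR-375-3p, which made up nearly all of that sum (mean 3842 CPM in C-exo replicates 1 and 2), went the other way. Its log2 fold change was -0.71. In plasma, fewer vesicles from a cell type and less of a miRNA per vesicle cannot be told apart.

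The make-up of the 5p arms within a library needs no scaling between libraries. miR-30d-5p held 58.5%, 48.8% and 63.8% of the 5p counts in C-exo and 43.6%, 46.1% and 53.7% in R-exo. Its mean share was 57.0 ± 7.63% in C-exo and 47.8 ± 5.28% in R-exo (SD, n = 3 each), and the groups overlapped. The difference of -9.22 percentage points was -5.83 without C-exo replicate 3 and -13.3 without C-exo replicate 2. miR-30a-5p was the second arm in every library, with shares of 25.9%, 32.0% and 23.0% in C-exo and 35.2%, 32.8% and 31.2% in R-exo, again with overlap.

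miR-30e-5p was the exception among the 5 shares. It held 6.16%, 6.71% and 5.27% of the 5p counts in C-exo and 7.96%, 8.79% and 7.91% in R-exo, so that every R-exo library was above every C-exo library, C-exo replicate 3 included. Of 392 tested miRNAs with a count in every library, 9.95% had no overlap between groups in their count per count of the summed 5p arms (6.63% higher in R-exo). In CPM, miR-30e-5p overlapped between groups. The mean share was 6.04 ± 0.726% in C-exo and 8.22 ± 0.495% in R-exo (SD, n = 3 each). The shares of miR-30c-5p (6.82% to 11.2% in C-exo and 6.42% to 12.0% in R-exo) and miR-30b-5p (0.694% to 1.29% and 0.787% to 1.26%) overlapped. The Wilson 95% intervals of these shares were at most 0.804 percentage points wide, which covers counting error only, because the same molecule can be read many times after PCR when it carries no identifier. The 5 shares sum to 100% in each library and so are not independent, and they were given no test.

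**Figure D3:**
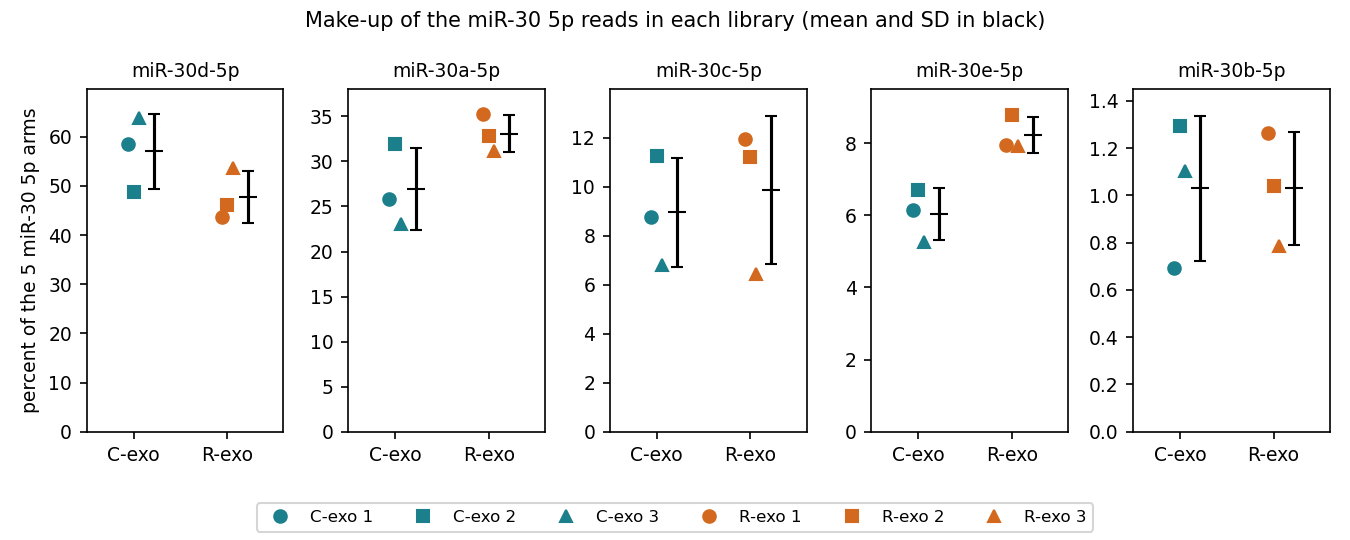
Percent of the counts of the 5 miR-30 5p arms held by each arm in every library, with the group mean and SD in black. miR-30e-5p is the arm without overlap between groups, at 5.27% to 6.71% in C-exo and 7.91% to 8.79% in R-exo.

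The ratio of 5p to 3p counts compares the arms of a stem-loop and is likewise free of scaling. For miR-30a there were 8.70, 6.95 and 10.8 5p counts per 3p count in C-exo and 14.1, 14.1 and 16.5 in R-exo. Each R-exo library was above each C-exo library, and C-exo replicate 3 was the nearest control. The mean ratio was 8.81 ± 1.91 in C-exo and 14.9 ± 1.38 in R-exo (SD, n = 3 each), a difference of 0.78 in mean log2 ratio with an exact two-sided permutation p = 0.1, the smallest that 3 libraries against 3 allow. Put as a share, the 3p arm made up 8.50% to 12.6% of miR-30a counts in C-exo and 5.72% to 6.63% in R-exo.

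For miR-30e the ratio was 2.12, 2.08 and 2.51 in C-exo and 2.53, 3.20 and 4.03 in R-exo. The groups did not overlap, but C-exo replicate 3 and R-exo replicate 1 lay within counting error of each other, with the 3p arm at 28.5% (Wilson 95% interval 27.8% to 29.2%) and 28.3% (27.6% to 29.1%) of both arms. The means were 2.24 ± 0.236 and 3.25 ± 0.752 (SD, n = 3 each), a difference of 0.52 in mean log2 ratio (exact two-sided permutation p = 0.1).

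miR-30d was unlike these in scale, with 3374, 1252 and 3218 5p counts per 3p count in C-exo and 1347, 2470 and 1834 in R-exo. The groups overlapped (exact two-sided permutation p = 0.6), and the ratio rests on the 10 to 56 counts of its 3p arm. Benjamini-Hochberg adjustment over the 3 ratios gave 0.15, 0.15 and 0.6 for miR-30a, miR-30e and miR-30d. Of 108 stem-loops with both arms tested and present in every library, 14.8% had ratios without overlap between groups, 3.7% higher in R-exo, and 51.9% had a higher mean log2 ratio in R-exo. The remaining stem-loops were not tested and overlapped between groups. miR-30b had 1.84, 6.87 and 28.4 5p counts per 3p count in C-exo against 7.21, 19.0 and 7.87 in R-exo, and miR-30c, set against both of its 3p arms, had 21.2, 25.1 and 98.3 against 39.3, 123 and 56.6. Their differences in mean log2 ratio were 0.53 and 0.80, similar in size to those of miR-30e and miR-30a, so that 2 of the 5 ratios of the family were without overlap. The differences of miR-30a and miR-30e ranked 50 and 71 by size among the 108.

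**Figure D4:**
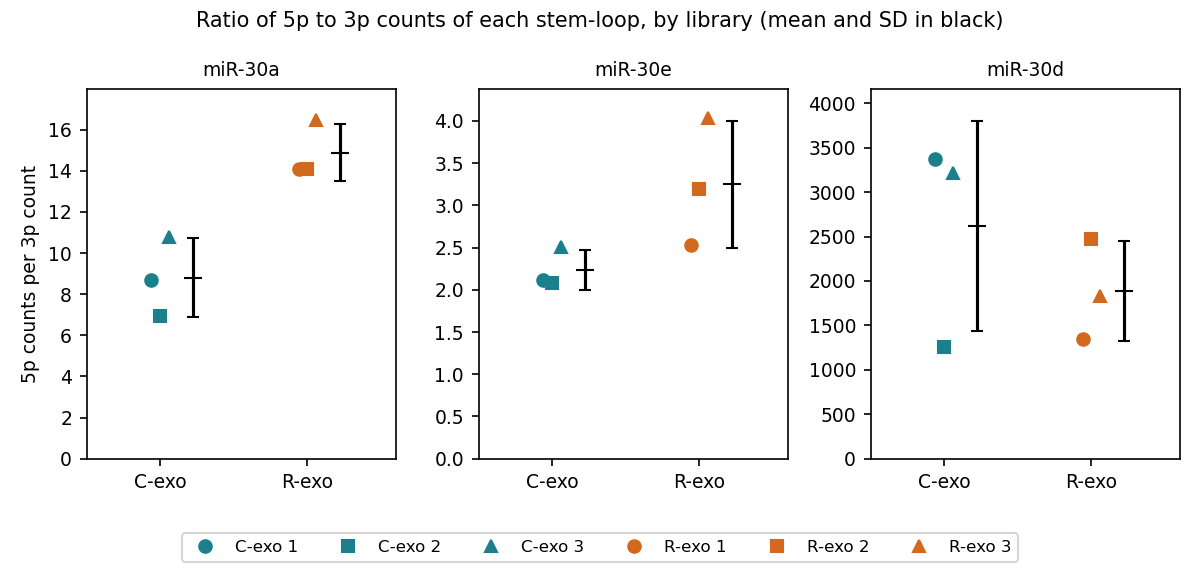
Counts of the 5p arm per count of the 3p arm for miR-30a, miR-30e and miR-30d in each library, with the group mean and SD in black. The R-exo libraries lie at 14.1 to 16.5 for miR-30a against 6.95 to 10.8 in C-exo, while miR-30d overlaps between groups.

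The other arms of the family in the table were the 3p arms of miR-30b and of the Mir30c stem-loops, which are not among the 8 members. The available sequences are shown because their seed, UGGGAGA, differs from that of miR-30a-3p and was found in no other miRNA of the RefSeq table, while no entry was at hand for miR-30b-3p.
rno-miR-30c-1-3p: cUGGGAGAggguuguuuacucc
rno-miR-30c-2-3p: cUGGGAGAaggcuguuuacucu

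Their levels followed another order of libraries. miR-30c-2-3p was at 42.1, 40.8 and 20.6 CPM in C-exo against 43.8, 17.1 and 24.1 CPM in R-exo, and miR-30b-3p at 48.6, 18.6 and 12.8 CPM against 30.04, 12.2 and 25.2 CPM. miR-30c-1-3p was lowest, between 2.28 and 11.2 CPM in C-exo and between 3.16 and 8.25 CPM in R-exo. C-exo replicate 3 was low for all 3, at 0.497, 0.381 and 0.313 times the mean of the other control libraries, where it was 1.68 to 3.41 times that mean for the 8 members. None of the 3 passed the test (unadjusted p from 0.59 to 0.94 in the edgeR quasi-likelihood test, adjusted p from 0.80 to 0.98), and the groups overlapped for each. Without C-exo replicate 3 the log2 fold changes were -0.54 for miR-30c-2-3p, -0.56 for miR-30b-3p and -0.42 for miR-30c-1-3p. They were thus below 0, where those of the 8 members were above 0.

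The miRNA with the profile most like that of the summed 5p arms was miR-872-5p, at a root mean square distance of 0.17 between log2 levels centred over the 6 libraries. Its levels were 351, 272 and 648 CPM in C-exo against 443, 570 and 704 CPM in R-exo. Next came let-7c-2-3p and let-7a-1-3p, whose counts were identical in every library (distance 0.27), miR-148a-3p (0.28) and let-7e-3p (0.29). The median distance over the 381 miRNAs compared was 0.83. Among the members themselves the distance was 0.19 to 0.36 for the 5p arms and 0.28 to 0.44 for the 3p arms, and the 5p arms are part of the sum.

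Families of guide strands were set beside the 8 members to show how far they moved. The 9 guide strands of let-7 and miR-98 had a median log2 fold change of 1.07, with 9 of 9 above 0 (48.8% of all tested miRNAs were), and the 2 miR-26 guide strands had 0.99 and 1.21. In the edgeR test used here, 0 of these met the criterion of the study, as for miR-30, against 9.41% of all tested miRNAs. That count belongs to the edgeR test and not to the paper's own calls. The paper had guide strands of let-7c, let-7f and miR-98 among the miRNAs it called higher in R-exo by that criterion, and it followed them by quantitative PCR. Without C-exo replicate 3 the medians were 1.84 for let-7, 2.52 for miR-26 and 0.89 for miR-30, and 7 of 9, 2 of 2 and 2 of 8 had an adjusted p under 0.05 (the edgeR quasi-likelihood test), beside 31.3% of all tested miRNAs (17.3% called and higher in R-exo) and with the same limit on p-values without that library. Whether the families differed from each other was not tested.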

How the data were processed

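Small RNA libraries of plasma exosomes (3 C-exo, 3 R-exo) were sequenced on an Illumina HiSeq 2500. The authors deposited raw counts of reads per mature miRNA, neither normalized nor pooled. The submitters' processing notes name bcl2fastq, BWA and build rn6, and the miRNA database, mismatch rule and treatment of reads with several matches are not given in the sources used here. Groups and replicate numbers came from the sample titles, and every column was used. No pair of libraries agreed within sampling noise.

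Differences were tested with edgeR 4.0.16 under R 4.3.3, using filterByExpr by group (minimum count 10, minimum total 15), TMM factors, estimateDisp, glmQLFit and glmQLFTest. The model held condition alone, and p-values were adjusted by Benjamini-Hochberg across the 404 tested of 598 detected miRNAs. Standard errors came from the fold change and its F statistic. Arm ratios were compared by exact permutation. The alternatives were RLE, upper quartile or library-size scaling, other filters, DESeq2 1.42.0, limma-voom (limma 3.58.1), the replicate number as a block, and each library left out in turn.

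Named miRNAs were the 8 members, the other miR-30 arms, the 5 nearest profiles and fixed marker and comparison lists. miR-384-5p was added after its seed was found. The members and lists were chosen with earlier results of these data known.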

Additional observations from a re-analysis of the deposited data

How the results depend on the processing

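Every alternative that kept all 6 libraries gave 0 of the 8 members at either threshold, and the members' median log2 fold change stayed between 0.32 and 0.49. Library-size scaling moved the median of all tested miRNAs from -0.05 to 0.10. The number of all miRNAs meeting the criterion of the study was 38, but 63 without the filter on low counts. It was 182 without C-exo replicate 3 and 15 to 29 with any other library left out. The share of calls higher in R-exo was 8 of 38, but 18 of 33 with library-size scaling. That share was 17 of 49 with DESeq2, 27 of 49 with limma-voom and 6 of 39 with at least 10 counts in every library. Leaving out single libraries, the number of members meeting that criterion, and likewise the number with an adjusted p under 0.05, ranged from 0 to 2, the 2 coming without C-exo replicate 3. Their median log2 fold change then ranged from 0.11 to 0.89. The log2 ratio of the summed 5p arms (0.21) then ranged from -0.092 without C-exo replicate 2 to 0.92 without C-exo replicate 3, and that of the 3p arms (0.071) from -0.082 to 0.42. The log2 arm ratio difference ranged from 0.62 to 0.93 for miR-30a, 0.35 to 0.69 for miR-30e and -0.85 to -0.14 for miR-30d. With all 6 libraries kept, other scaling or averaging of log2 values moved the sums too. The log2 ratio was then 0.29 to 0.40 for the summed 5p arms and 0.088 to 0.23 for the 3p arms.

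Directions of members near 0 turned. miR-30d-5p (-0.095) was 0.0101 with RLE, 0.0744 with library size only, 0.0109 with upper quartile scaling, 0.0101 with DESeq2, 0.15 with limma-voom and 0.14 with the replicate block, and -0.40 to 0.77 with a library left out. miR-30a-3p (-0.12) was 0.027 with library size only and -0.32 to 0.19 with a library left out, and miR-30b-5p (0.15) was -0.20 to 0.998 with a library left out. With all libraries kept miR-30b-5p stayed above 0, at 0.31 with library size only, 0.41 with limma-voom and 0.44 with the replicate block. Of the other arms, miR-30b-3p (-0.24) was 0.015 with library size only and -0.56 to 0.45 with a library left out. miR-30c-1-3p (-0.058) was 0.044 with RLE, 0.22 with library size only, 0.0059 without the filter, 0.042 with DESeq2, 0.29 with limma-voom, 0.13 with the replicate block, and -0.42 to 0.84 with a library left out. The cause of these changes was not tested.

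With the replicate block, 0 of 8 members were called at either threshold and the median was 0.47, and 38 of all miRNAs met the criterion of the study, 25 of them higher in R-exo. Libraries with the same number belong to different rats, and the correlation of their deviations was -0.28 to 0.33, so the numbers were not taken as pairs. Depth limits miR-30d-3p most, at 10 to 56 counts, and 3 libraries against 3 cannot give an exact p below 0.1.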
